A study of Homo sapiens with 18 samples.

Results

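Inside protein-coding genes, away from both ends, lay 395 of the 2149 peaks of RNA bound by wild-type MYC in a human osteosarcoma line. They were chosen by position alone. Each peak was given to the shortest annotated gene that holds its summit, the point of highest signal. Genes that code for protein and are at least 5 kb long were kept as hosts, and each host was cut into 5 equal parts along the strand of the peak. Of the 1519 wild-type peaks with such a host, 809 had their summit in part 1 (53.3%), 315 in part 5 (20.7%) and 395 in parts 2 to 4, between 20% and 80% of the gene's length (26.0%, 95% Wilson interval 23.9 to 28.3). These 395 are called interior peaks here, and they lay in 271 host genes.

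The assay was eCLIP (enhanced crosslinking and immunoprecipitation), in which ultraviolet light links RNA to protein in living cells and the RNA that comes down with the protein is sequenced. All groups were U2OS cells labelled as MYC knockout, each carrying a FLAG-tagged MYC that doxycycline switches on, either wild type (MYC-WT) or a mutant named MYC-3A or MYC-7A. The 3 peak lists analysed are those of cells treated for 24 h with 1 µg/mL doxycycline, 1 list per allele. The group behind each list had 2 libraries precipitated with an antibody to FLAG and 1 input library, and the series holds as many from cells given PBS for 24 h in place of doxycycline, for which no list was analysed here. Which residues differ in the mutants, whether a line is 1 clone, and how the level of the tagged protein compares between alleles are not given in the labels. With 1 list per allele no value has a replicate check, depth is unknown, and the background in cells without doxycycline was not analysed here. Fold enrichment is the authors' value for a peak over a control that the sources used here do not name, and −log10 q is its significance in the same list, so both were read only within a list. A peak list measures no expression, so how much of each message the cells held is unknown. Of 8 marker genes of the mesenchymal and bone lineage, only the vimentin gene VIM held a wild-type peak, outside the interior, and none of 13 markers of epithelial, hepatic, blood and neural cells did.

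MYC is a transcription factor and an oncoprotein. It pairs with MAX and binds DNA at E-boxes, short elements with the core CACGTG that are common near gene starts, and it is known for raising the output of genes for ribosomes, protein synthesis, metabolism and the cell cycle. A peak in eCLIP marks RNA and not DNA. RNA from the interior of a gene can be intron or exon, and in several genes of the translation machinery the introns carry small nucleolar RNAs (snoRNAs), which are released from the spliced intron and guide the modification of ribosomal RNA. Exons were not annotated in the tables used here, so no interior peak is placed in an exon or an intron.

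The annotated span of a gene can hold a start of the same gene in its interior, and some interior peaks lay just downstream of one. The sequences shown here are those at 7 such starts, the closest among peaks whose edge reaches into the printed stretch, to show what lies where the peak begins. Each runs from 60 bases before the annotated start to 30 bases after it, 5′ to 3′ on the strand of the gene, from the RefSeq windows of GRCh38.p14, and capitals mark the bases inside the peak.

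ZNG1E: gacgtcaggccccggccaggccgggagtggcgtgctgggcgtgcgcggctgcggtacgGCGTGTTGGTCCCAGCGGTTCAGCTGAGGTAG
FKBP5: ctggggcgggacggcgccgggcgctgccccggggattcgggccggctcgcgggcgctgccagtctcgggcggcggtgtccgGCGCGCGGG
HAUS7: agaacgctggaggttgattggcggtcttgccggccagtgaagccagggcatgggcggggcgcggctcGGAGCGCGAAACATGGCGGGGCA
ATP5F1A: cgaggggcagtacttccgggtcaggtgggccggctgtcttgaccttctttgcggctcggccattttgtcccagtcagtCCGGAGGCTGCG
URI1: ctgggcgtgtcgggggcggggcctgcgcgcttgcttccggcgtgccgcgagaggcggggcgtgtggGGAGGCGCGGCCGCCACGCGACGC
RANGAP1: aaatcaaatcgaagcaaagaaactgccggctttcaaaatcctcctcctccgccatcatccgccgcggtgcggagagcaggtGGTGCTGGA
PAICS: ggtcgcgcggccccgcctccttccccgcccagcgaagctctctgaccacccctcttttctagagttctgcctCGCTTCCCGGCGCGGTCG

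In 6 of these 7 the peak opened inside the transcribed side of the start, between base 7 and base 22 after it, and in ZNG1E it opened 2 bases before the start. The stretches lie at chr9:65675868-65675957 (ZNG1E), chr6:35688886-35688975 (FKBP5), chrX:153470547-153470636 (HAUS7), chr18:46098267-46098356 (ATP5F1A), chr19:29942179-29942268 (URI1), chr22:41286158-41286247 (RANGAP1) and chr4:56436200-56436289 (PAICS). Their share of G and C had a median of 70% over the 7, from 55.6% in RANGAP1 to 85.6% in FKBP5. The median was 61.1% over the same stretch at all 35116 starts of the table and 64.4% at the 22199 starts of coding genes. RANGAP1 was thus below both, and the other starts near interior peaks were not compared. ZNG1E belongs to a family of near-identical copies, so the copy of origin of its reads is uncertain.

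For 326 interior peaks the host had known start positions on the strand of the peak. Of these, 32 summits (9.82%) in 31 hosts lay within 500 bp of an annotated start of their own host, and 26 of them lay 0 to 200 bp downstream of it. Over all eligible wild-type peaks with a known start the share was 48.5%, since it was 574 of 668 (85.9%) in part 1. In part 5 it was 2 of 260 (0.769%). Within the interior the count fell along the gene, with 16 in part 2, 12 in part 3 and 4 in part 4. Their hosts have a first annotated edge far upstream, between 1.38 kb and 45.5 kb before the summit. For 24 of the 32 the host had more than 1 listed start. For the rest, ZNG1E among them, the start was the only one listed for the host. Those peaks are interior only because the annotated span reaches farther upstream.

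The peak at the inner start of RUVBL1, which encodes an ATPase of chromatin remodelling complexes, had a fold enrichment of 19.9 and a summit 151 bp after that start and 30.3 kb into the gene. NME2, a nucleoside diphosphate kinase gene, had 17.6 with a summit 413 bp after the start. PAICS, an enzyme of purine synthesis, had 16.9 with a summit 94 bp after it. FKBP5, a co-chaperone of steroid receptors, had 14.5 at 72 bp, and USP39, a splicing factor, had 13.1 at 102 bp. The lowest was 3.21 at PSMG4, a proteasome assembly chaperone, whose summit lay 97 bp after the start. The median fold enrichment of the 32 was 7.50, below the 8.13 of the 294 interior peaks farther from a known start. No test was made of that difference.

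CACGTG was found, in windows of 300 bases from 250 before to 50 after the start, at 5 of the 31 starts used (16.1%), those of FKBP5, CANX, TUBA1C, PRR5 and BYSL. The motif reads the same on both strands. It was present in 2548 of all 35116 windows (7.26%) and in 8.34% of those of coding genes. With 5 starts the share is loosely set, and a match in the window shows the letters only. None of the 32 peaks met a peak of either mutant, which by the Wilson interval allows a share of up to 10.7%.

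**Figure D1:**
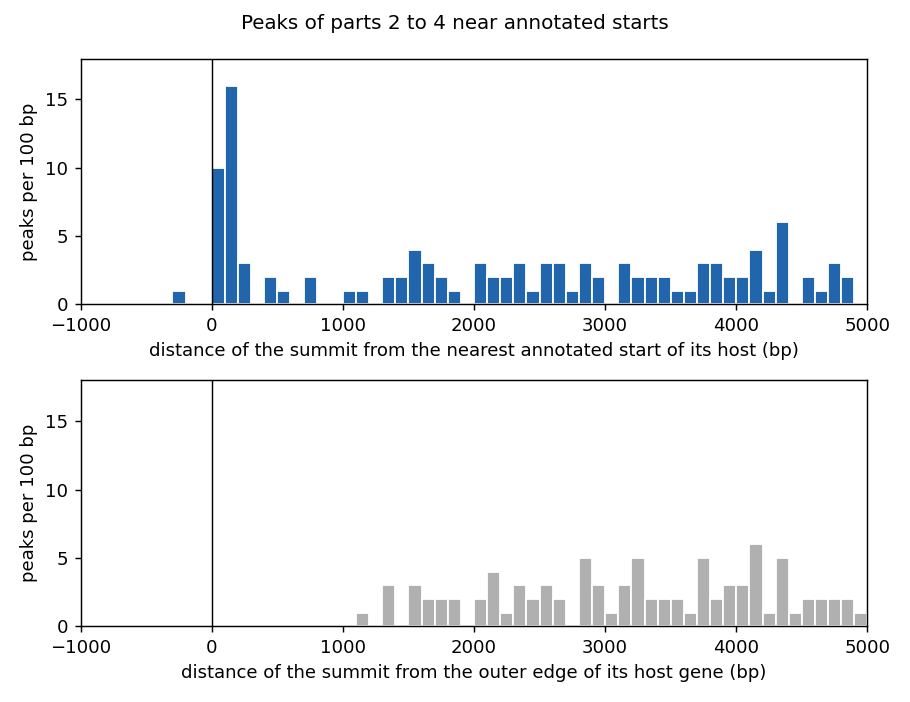
Number of interior wild-type peaks per 100 bp against the distance of the summit from the nearest annotated start of its host (top) and from the outer edge of the host gene (bottom), both in bp. Of 326 peaks with a known start, 26 sit at 0 to 200 bp after a start, while the bottom panel is empty up to about 1 kb because the rule places every summit at least 1 kb from both edges.

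Along the gene the interior was the flat stretch between a peak-rich start and a less dense end. Cut into 10 equal lengths, the 1519 eligible wild-type peaks numbered 738 in the first, then 71, 67, 54, 59, 64, 66, 85 and 94, and 221 in the last. Part 2 held 121, part 3 held 123 and part 4 held 151. Just inside the lower limit lay peaks of RBM3 (20.1% of the gene's length, fold enrichment 5.02) and URI1 (9.43), and just outside it TTLL12 (19.9%, 11.8), CYCS (12.5) and UBTF (6.12). Just inside the upper limit lay PTMA (79.9%, 9.67), TUBA1C (4.35) and CREB5 (16.0), and just outside it POLR2E (80.0%, 7.70), LMNB2 (6.62) and EEF2 (3.90). Interior summits lay a median of 11.5 kb from the start of the host, and hosts ranged from 5.03 to 527 kb.

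**Figure D2:**
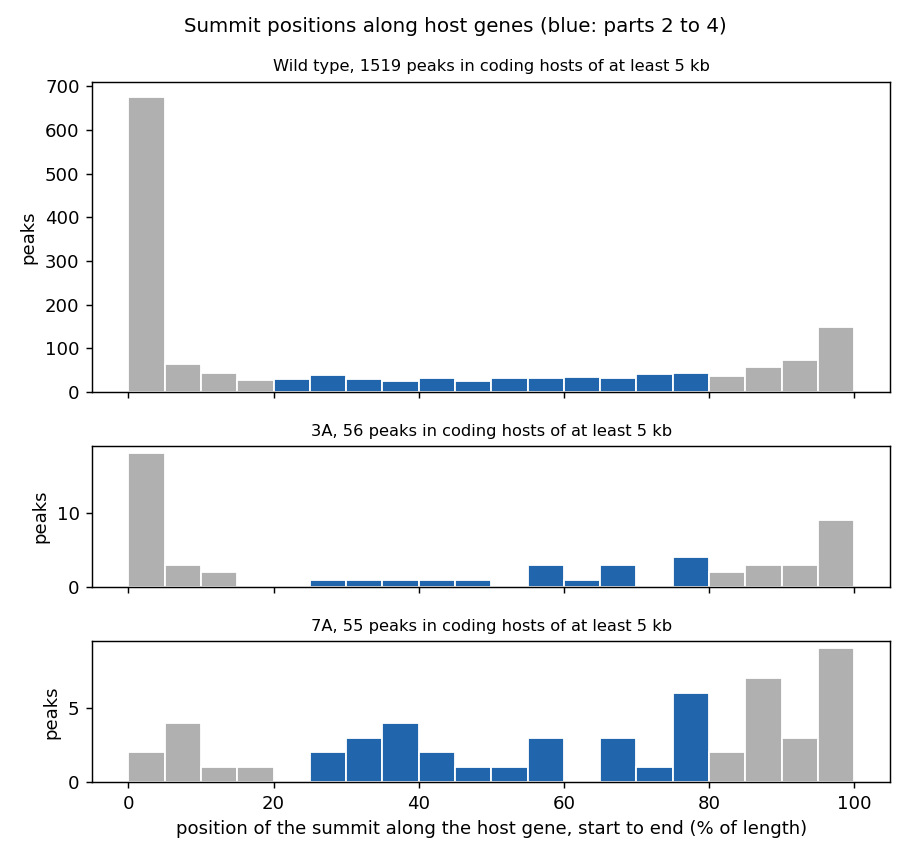
Number of peaks against the position of the summit along the host gene, in percent of its length from start to end, for the wild-type, 3A and 7A lists. Parts 2 to 4 are blue and hold 395 of 1519 wild-type, 16 of 56 3A and 26 of 55 7A peaks.

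In strength the interior peaks were like the list as a whole. Their median fold enrichment was 8.15, with quartiles of 5.73 and 11.8, and that of all 2149 wild-type peaks was 8.11. It was 8.38 in part 1 and 6.89 in part 5, and within the interior 7.63, 8.58 and 8.11 in parts 2, 3 and 4. The median −log10 q was 18.3, against 16.8 in part 1 and 14.8 in part 5. The median width was 159 bp, against 167 and 177 bp, and 24 interior peaks (6.08%) were wider than 400 bp. Hosts of 10 to 100 kb held 288 of the interior peaks with a median fold enrichment of 8.58, hosts of 5 to 10 kb held 79 (6.89), and hosts over 100 kb held 28 (7.31).

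**Figure D3:**
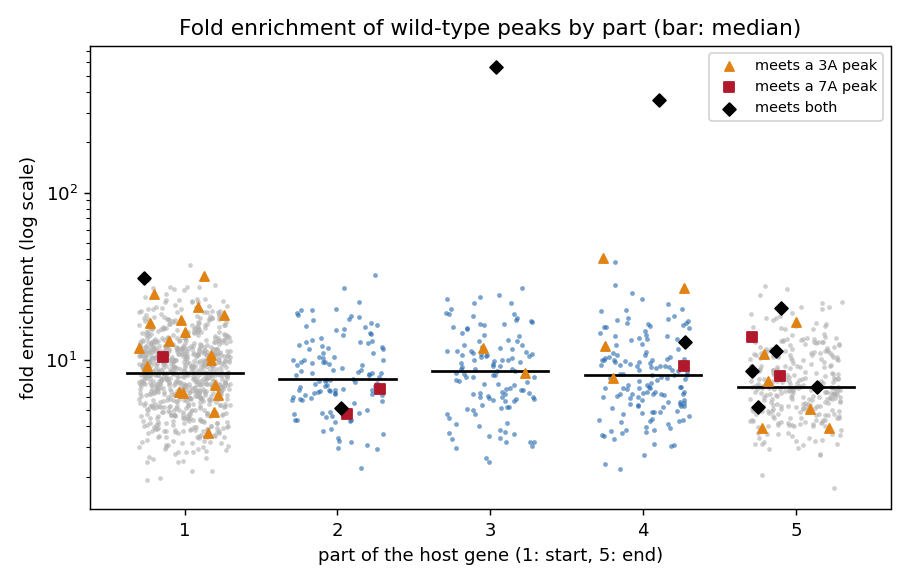
Fold enrichment on a log scale of each wild-type peak in a coding host of at least 5 kb, by part of the gene, with the median of each part as a bar and marks for peaks that meet a mutant peak. The medians run from 6.89 to 8.58, and the 2 MYC peaks of parts 3 and 4 stand alone at 563 and 355.

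The highest fold enrichments of the interior set were those of the MYC gene itself. The MYC peaks, at chr8:127738264-127739085 and chr8:127740393-127741030, had fold enrichments of 563 and 355. The cells carry a MYC transgene, and its part in these peaks was not tested. Without MYC the highest value was 40.8, in LDHB, a lactate dehydrogenase subunit, at chr12:21643891-21644079. SPOCK3, a proteoglycan gene, followed with 38.3 in a peak of 100 bp, and it was the sole interior peak of its host. TFRC, the transferrin receptor through which cells take up iron, had 32.0, and RAN, the small GTPase of nuclear transport, had 27.9. SCD, a fatty acid desaturase, and ADISSP, an adipokine gene, each had 26.9, and the glycolytic enolase gene ENO1 had 26.8. PRDX6, a peroxiredoxin, had 24.9, the pentose phosphate enzyme gene TKT had 24.2 and the ATP synthase subunit gene ATP5F1B had 23.7. Of the 395 peaks 21 reached 20-fold and 74 were below 5-fold. At the low end stood RPS19 (2.23), EIF4G1 (2.26), FASN (2.38) and DHRS2 (2.47). By −log10 q the MYC peaks were followed by ENO1 (249), LOC102724250 (223), HSP90AB1 (151) and RPL37A (149).

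The widest interior peaks were those of UCKL1, a uridine kinase-like gene (1559 bp, fold enrichment 14.1), PPRC1, a coactivator of genes for mitochondria (1482 bp and 1097 bp, with 16.0 and 15.4), MYC (822 bp) and PUS1, a pseudouridine synthase (672 bp, 10.7). The PPRC1 peaks lie one after the other at chr10:102139209-102140690 and chr10:102140896-102141992, and 2 more interior peaks of the gene, of 230 and 173 bp, lie upstream (5.73 and 5.37).

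Most interior peaks shared their host with other wild-type peaks. This was so for 298 of 395 (75.4%), against 53.9% of the eligible wild-type peaks and 50.5% of all wild-type peaks. It was 35.6% in part 1 and 74.0% in part 5, so the interior was near part 5 and part 1 was the low one. The nearest other peak of the host lay a median of 3091 bp away, and within 1 kb for 80. A single interior peak was found in 204 hosts, 2 in 33 hosts and 3 or more in 34 hosts, which held 125 peaks. Of the 271 hosts, 118 also had a peak in part 1, 81 in part 5 and 38 in both, while 110 had peaks in the interior alone (130 peaks). Peaks of 1 gene can come from the same messages and cannot be taken as independent.

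Where a host had peaks in both places, the interior was about as strong as the start. In 63 of 118 hosts the highest interior fold enrichment was above the highest of part 1, with a median log2 ratio of 0.08. Since a host with more peaks has more chances of a high one, the 66 hosts with 1 peak in each place were also set apart. There the interior peak was the higher in 30, with a median log2 ratio of −0.12. Against part 5 the interior was higher in 50 of 81 hosts, with a median log2 ratio of 0.31.

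PKM and FASN had the most interior peaks, with 7 each. In PKM, which encodes the pyruvate kinase that closes glycolysis, the fold enrichments from start to end were 4.72, 16.0, 3.37, 4.15, 2.71, 10.2 and 7.23. The highest lay at chr15:72217354-72217500, 14.2 kb into a gene of 32.6 kb, and exceeded both the single peak of part 1 (9.33) and the highest of part 5 (5.09). In FASN, the fatty acid synthase gene, the values were 10.0, 6.15, 3.74, 5.97, 3.80, 2.38 and 5.73. FASN had no peak in part 1, and the highest of its part 5 was 10.9, so its peaks ran through the gene without a high point at its start.

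ENO1 had 5 interior peaks, of 7.34, 17.2, 26.8, 12.2 and 7.74 from start to end, against 10.5 in part 1 and at most 16.8 in part 5. HSP90AB1, a cytosolic HSP90 chaperone gene, also had 5, of 11.8, 8.32, 5.29, 13.8 and 4.81, all below the 19.2 of its part 1. EEF2, the elongation factor that moves the ribosome along the message, had 5 of 6.33, 5.18, 4.17, 8.28 and 3.06, and its part 1 peak had 3.67. SCD had 4, of 26.9, 11.2, 4.02 and 12.3, with 19.2 as the highest of part 1. The high point thus lay in the interior in PKM, ENO1, EEF2 and SCD, at the start in HSP90AB1 and in part 5 in FASN. EIF3B, EEF1A2, LMNB2, AHCY, PPRC1, RPL3, EIF4G1 and DHRS2 also had 4 each.

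**Figure D4:**
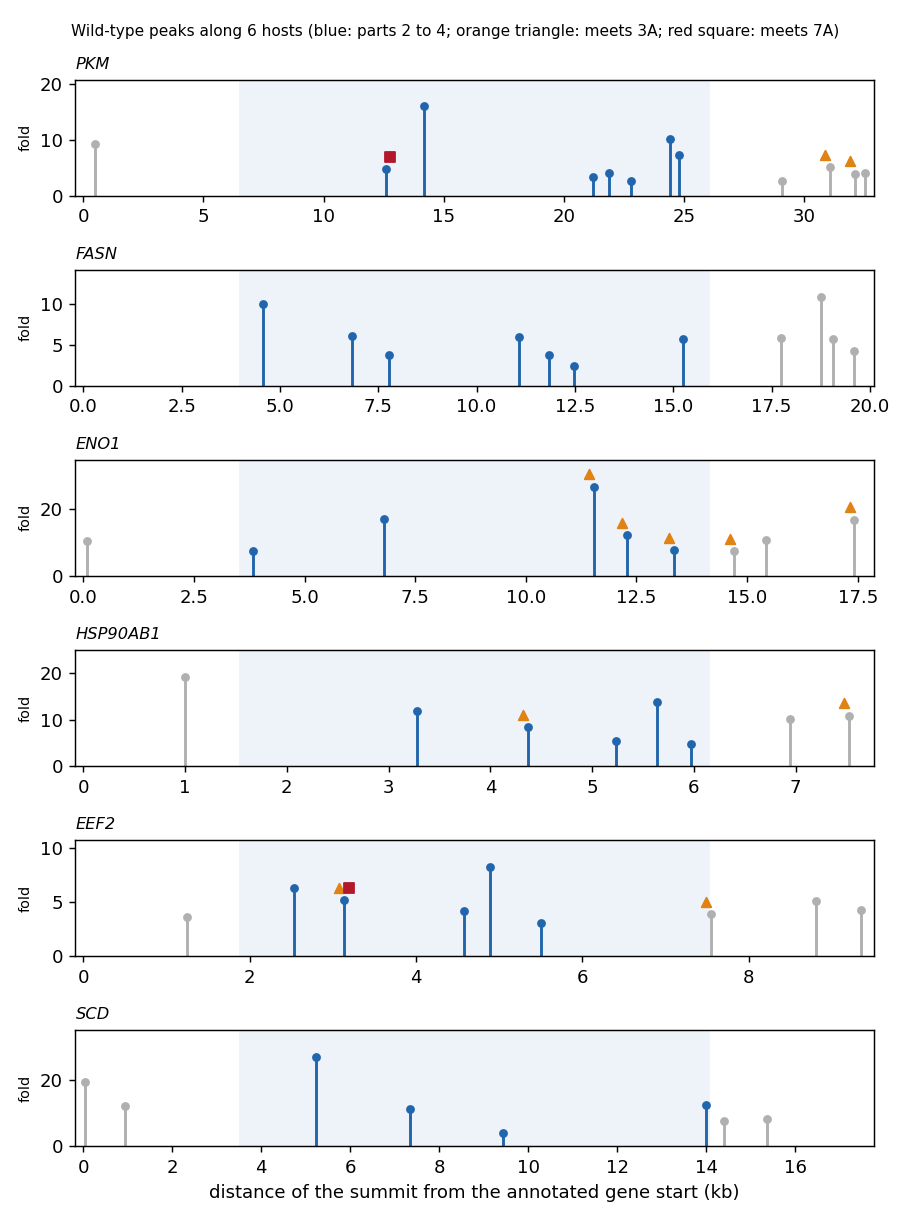
Fold enrichment of each wild-type peak against the distance of its summit from the annotated start of the host, in kb, for the 6 hosts with most interior peaks. Parts 2 to 4 are shaded, interior peaks are blue, peaks of parts 1 and 5 are grey, and marks above a peak show that a 3A peak (triangle) or a 7A peak (square) meets it; ENO1 has 3 such interior peaks and FASN none.

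Hosts were described by 16 gene lists, which together took in 168 interior peaks in 94 hosts, while 227 peaks belonged to none. Over all 16846 coding genes of at least 5 kb, 271 (1.61%) had an interior peak. All lists except matrix and adhesion genes, with 0 of 29, had a higher share than this. Peaks in any part of the gene were found in 987 of these coding genes. They were also frequent in the lists, with 15 chaperone, 28 ribosomal protein, 19 ribosome biogenesis and 18 splicing factor genes, against 1 matrix and adhesion gene. Whether the shares are particular to the interior was not tested. The lists were chosen with earlier results of these data known, and most hold abundantly expressed genes, whose part in the shares was not tested. Counts here are of list genes at least 5 kb long.

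Genes of energy and lipid metabolism were frequent hosts. Of 14 glycolysis genes, 7 had an interior peak, with 20 peaks of median fold enrichment 7.54. They were led by LDHB (40.8), ENO1 (26.8), PKM (16.0) and LDHA, the other lactate dehydrogenase subunit (10.3). Of 28 genes of fatty acid and sterol synthesis, 6 had 16 peaks of median 6.84. SCD (26.9) was followed by DHCR7, which makes cholesterol from its precursor (18.0), FASN (10.0) and FADS2, a fatty acid desaturase gene (8.60). Genes of nucleotide and polyamine synthesis numbered 11 of 32, with 15 peaks of median 12.7. Among them were NME2 (17.6), PAICS (16.9), SRM, the spermidine synthase gene (15.7), and SHMT2, the mitochondrial serine hydroxymethyltransferase gene (15.2). So both the glycolysis and the lipid lists had medians below the 8.15 of all interior peaks, and the nucleotide list had a median above it.

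The translation machinery gave the most list peaks. Of 40 cytosolic ribosomal protein genes, 16 had 27 interior peaks of median 6.59, from 2.23 in RPS19 to 19.1 in RPL37A, and they included RPL31 (18.3) and RPS29 (17.1). Ribosomal protein genes have many near-identical pseudogenes, so reads can be placed at the wrong copy. Of 12 elongation genes, 5 had 14 peaks of median 8.11, led by EEF1A2, a tissue-restricted form of elongation factor 1 alpha (14.1), the mitochondrial factor TSFM (13.4), the ribosome-bound scaffold RACK1 (9.77) and the release factor GSPT1 (8.58). Of 36 initiation factor genes, 5 had 12 peaks of median 6.32. They included EIF3B, a subunit of the factor that prepares the small ribosomal subunit (14.4), EIF3L (10.0), the helicase EIF4A1 (9.96) and EIF2B3 (6.36). The scaffold gene EIF4G1 had 4 peaks of at most 6.27. Of 23 genes of aminoacyl-tRNA synthetases and their partners, 5 had 1 peak each, led by the scaffold gene AIMP2 (18.3) and the methionyl enzyme MARS1 (12.8). Ribosome biogenesis genes numbered 5 of 33, with 8 peaks of median 12.8, among them NOP56 and FBL, core proteins of box C/D snoRNA particles (20.1 and 17.6), the nucleolar phosphoprotein gene NOLC1 (17.9) and the nucleolin gene NCL (9.27).

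Chaperones had the highest share of genes with an interior peak, 10 of 17, with 19 peaks of median 10.7. Subunits of the CCT chaperonin, which folds actin and tubulin, were 5 of the 10 hosts, with CCT4 at 20.1, CCT5 at 19.7 and CCT7 at 15.0. The mitochondrial chaperonin gene HSPD1 had 19.2 and the mitochondrial HSP70 gene HSPA9 had 15.6. Of 29 genes of nuclear import, export and transport receptors, 7 had 11 peaks of median 9.36, led by RAN (27.9), the exportin CSE1L (17.2), the importin KPNA2 (11.7) and RANGAP1, the activator of the RAN GTPase (10.1).

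Of 35 SR and hnRNP splicing factor genes, 7 had 9 peaks, led by HNRNPM (15.6), HNRNPU (9.92) and TRA2B (9.54). The DEAD-box and DEAH-box helicases had 2 of 37, DDX21, a nucleolar helicase (12.5), and DDX5 (6.68). Replication factor genes had 3 of 25, all subunits of the MCM helicase, with MCM7 at 10.4, MCM3 at 7.10 and MCM4 at 6.25. Of 28 proteasome genes PSMA7 alone had an interior peak (10.6), though 12 had a wild-type peak somewhere. Of 23 cytoskeleton genes 4 had 1 peak each, TUBB6 (6.45), TAGLN2 (6.23), SPTBN1 (6.01) and TUBA1C (4.35).

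Interior peaks near snoRNA genes formed a small group, mostly in hosts of the translation machinery. Within 300 bp of an annotated snoRNA gene lay 17 interior peaks (4.30%) in 11 hosts, of which 14 in part 2. The share was 2.42% over all 2149 wild-type peaks, 1.78% over the eligible ones, 7 of 809 in part 1 (0.865%) and 3 of 315 in part 5 (0.952%). Within the interior it was 11.6% in part 2, 0.813% in part 3 and 1.32% in part 4. The higher share of the interior was thus that of part 2. Only 1 of the 17 overlapped the snoRNA itself, the RPL3 peak at chr22:39316838-39317080 over SNORD139. Of the others 9 lay before and 7 after the snoRNA along the strand of the peak, with gaps of 18 to 248 bp and a median of 157.5 bp. A summit inside a snoRNA gene is given to that gene by the rule and leaves the interior set, which was so for 2 wild-type peaks.

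In 4 genes a peak lay on each side of the same snoRNA. EEF2 had fold enrichments of 6.33 before SNORD37 and 5.18 after it. RACK1 had 3.60 before SNORD96A and 9.77 after it. RPL4 had 8.39 before SNORD16 and 9.75 after it, and RPS3 had 4.53 before SNORD15B and 4.40 after it. Peaks on one side only were found in NOP56 beside SNORD110 (20.1), RPL27A beside SNORA3B (11.8), ATP5F1B beside SNORD59B (10.3), EIF4A1 beside SNORD10 (9.96), NCL beside SNORD82 (9.27), FASN beside SNORD134 (3.74) and RPL3 beside SNORD83A (3.65). RPL3 also had a peak 248 bp before SNORD139 (3.40), upstream of the one that overlaps it (6.59). SnoRNAs of such genes usually lie in introns, and whether the flanking peaks lie in the adjoining exons was not tested.

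**Figure D5:**
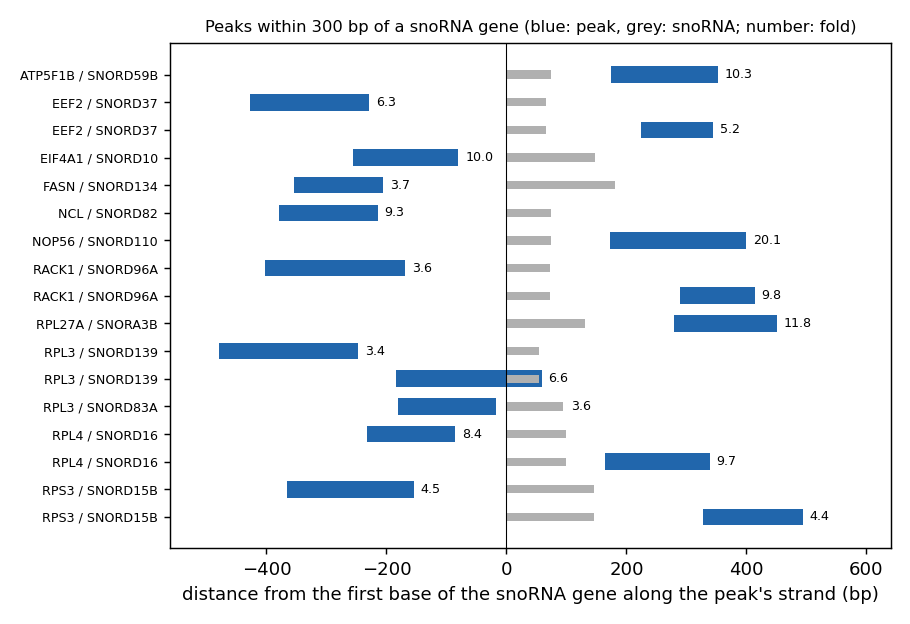
Position of 17 interior wild-type peaks (blue) relative to the first base of the nearest snoRNA gene (grey), in bp along the strand of the peak, with the host and snoRNA named at the left and the fold enrichment beside each peak. A single peak, in RPL3 over SNORD139, overlaps its snoRNA, and the other gaps are 18 to 248 bp.

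Beside another kind of small RNA, the LMNB2 peak at chr19:2434986-2435150, with a fold enrichment of 19.7 the highest of that lamin gene, reached into a microRNA hairpin of the same strand. LMNB2 encodes a protein of the nuclear lamina. In all, 4 interior peaks lay within 300 bp of a microRNA gene on either strand. The others were in PRMT1, ENO1 and HMGA1, at gaps of 23, 22 and 41 bp. The share over other wild-type peaks is not given here. The hairpin is shown because the peak ends inside the mature microRNA of its 5′ arm, and capitals mark the bases inside the peak, the first 15 of each sequence. It lies at chr19:2434914-2435000 in GRCh38.p14 on the minus strand, and both sequences are from RefSeq.

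MIR7108 hairpin: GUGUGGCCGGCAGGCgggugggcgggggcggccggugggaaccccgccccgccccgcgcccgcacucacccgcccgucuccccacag
hsa-miR-7108-5p: GUGUGGCCGGCAGGCgggugg

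The peak covers 15 of the 21 bases of the mature microRNA, and the rest of the peak lies upstream of the hairpin in the host gene.

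Few interior wild-type peaks were met by peaks of the mutants. A 3A peak met 10 of 395 on the same strand (2.53%, 95% Wilson interval 1.38 to 4.60), and over all wild-type peaks the share was 3.54%. A 7A peak met 7 (1.77%, interval 0.861 to 3.61), and over all wild-type peaks the share was 1.4%. Both shares are near those of the whole list. The 3A share was 1.58% with hosts of at least 10 kb and 4.0% among interior peaks with a fold enrichment at or above the list's median. For 3A the share was 2.35% in part 1 and 3.49% in part 5, and for 7A it was 0.247% (2 of 809) and 2.22%. Without the MYC peaks 8 (2.04%) and 5 (1.27%) of 393 interior peaks were met. In all 13 peaks in 10 hosts met a mutant peak, 4 of them met both, and the intervals cover counting error over peaks only.

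Peaks of all 3 alleles met at 4 interior places. At MYC the fold enrichments were 563 in the wild-type list, 53.2 in the 3A list and 39.8 in the 7A list for the first peak, and 355, 52.2 and 23.3 for the second. At ZNF316, a zinc finger gene, at chr7:6653490-6653591, they were 12.8, 4.43 and 3.39. At EEF2, at chr19:3982228-3982347 and 160 bp after SNORD37, they were 5.18, 4.79 and 3.46. Values of different lists are not on a common scale, so their order is no measure of binding.

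With 3A alone, 3 of the 5 interior peaks of ENO1 were shared, with wild-type values of 26.8, 12.2 and 7.74 and 3A values of 12.6, 6.17 and 5.44 in the same order. All 3 lie in part 4 of the gene, and the 2 interior peaks nearer its start (17.2 and 7.34) had no 3A peak. LDHB (40.8 in wild type, 14.7 in 3A), RPL27A (11.8 and 7.69) and HSP90AB1 at chr6:44250408-44250625 (8.32 and 4.94) were the other 3A peaks. With 7A alone, 3 interior peaks were shared. They were LOC102724250 at chr1:630718-630827 (9.23 in wild type, 2.98 in 7A), RILPL1, a gene of ciliary protein transport, at chr12:123510051-123510358 (6.68 and 18.0), and PKM at chr15:72218893-72219059 (4.72 and 3.93). LOC102724250 is a predicted gene, and its peak lies 32 bp from the mitochondrial pseudogene MTND2P28 and 247 bp from MTCO1P12. A part of mitochondrial reads in this peak was not tested.

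The 13 shared peaks had a median fold enrichment of 11.8 and a median −log10 q of 99.7, and the other 382 had 8.11 and 18.1. Without MYC the shared peaks had 9.23 and 85.1. So the shared peaks had the higher median in both values, which is a description of 13 peaks with no test. Fold enrichment and −log10 q are on different scales, so the sizes of these differences are not compared. A mutant peak somewhere in the gene was found in 18 of the 271 hosts, and in 8 of those 18 it met no interior wild-type peak. ATP5F1B, with 3 interior peaks, PGK1, PTMA and SNRPB were among these 8. The same shares over all hosts of wild-type peaks are not given here, so these counts describe the 271 hosts only.

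In the other direction the mutant lists had interior peaks of their own. Of 56 eligible 3A peaks, 16 lay in parts 2 to 4 (28.6%, 95% Wilson interval 18.4 to 41.5). Of 55 7A peaks, 26 did (47.3%, 34.7 to 60.2), beside 26.0% of wild-type peaks (23.9 to 28.3). These intervals cover counting error over peaks only. Several of the mutant peaks share a host, as in AUTS2 and TBC1D22A, and peaks of the same gene are not independent. A difference in this share between alleles was not tested. On wild-type interior peaks lay 10 of the 16 and 7 of the 26. The other 6 of 3A lay in 4 hosts and the other 19 of 7A in 16 hosts. A pair of 3A peaks in AUTS2 (17.7 and 16.6) and a pair in TBC1D22A (13.8 and 9.86) were each met by 7A peaks (21.7 and 13.5 in AUTS2, 18.2 and 7.51 in TBC1D22A), and neither gene had a wild-type peak. Next by fold enrichment in 7A were the adhesion gene KIRREL3 (17.0), the peroxidasin gene PXDN (16.1) and the peptidase gene PEPD (13.9).

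Hosts of these mutant peaks were longer than those of the wild-type interior set. Of the 19 7A peaks away from wild-type peaks, 12 lay in hosts over 100 kb, with a median host length over the 19 of 194 kb and a median width of 309 bp. The 7 on wild-type interior peaks had a median host length of 21.0 kb and a median width of 111 bp. For the 395 wild-type interior peaks the median host length was 21.8 kb. Host lengths and widths were not tested. RILPL1 had a second 7A interior peak (9.01) away from the wild-type peak, and DHX37, GPT2 and TBCD also held wild-type peaks elsewhere in the gene, while the other 12 hosts of these 7A peaks had none. The DHX37 peak of 7A and the RUNX1 peak of 3A lie on the strand opposite to the gene.

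The strand of the host could be read from the start table for 329 interior peaks, and it was that of the peak for 326. The other 3 were CREB5 (16.0), POLR1C (13.4) and SNX22 (3.12), where the gene runs on the opposite strand to the peak. The POLR1C summit also lies in part 3 of XPO5 and the SNX22 summit in part 5 of PPIB, both on the strand of the peak, so these are the candidate hosts there. For 66 interior peaks the table gave no strand, and for these the direction of the gene rests on the peak. A further gene also held the summit for 18 interior peaks in all.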

How the data were processed

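The deposited files are 3 narrowPeak lists, 1 for each allele with doxycycline, in hg38. MACS2, cutadapt and BWA were used per the submitters' processing notes. Not given in the sources used here are their versions, settings and roles, the control, and any pooling of replicates. The deposited fold enrichment is a ratio, the −log10 q values are the authors' own, and the deposited score was not analysed. The deposited summit counts bp from the peak's start. Depth per sample is unknown, and the number of peaks limits the precision.

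Coordinates were made 1-based. Hosts came from a RefSeq gene table of GRCh38.p14, with 59792 placed genes. Strands, starts and windows came from its promoter table. The planned placement in exons and introns was not analysed here. Peaks met when they shared at least 1 bp on the same strand. No test was made. Members and gene lists were chosen with earlier results of these data known.

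Named hosts were those of the 12 highest fold enrichments and −log10 q, the 6 hosts with most interior peaks, the 5 widest, all that met a mutant peak, the 3 highest and lowest of each of parts 2 to 4, and up to 4 per gene list. Genes named for starts, snoRNAs, microRNAs, strand, the limits of the rule or mutant peaks were chosen after their values were seen. Some genes that these rules select are not reported here. The assignment was tested on simulated summits. Alternatives covered the host rule, host length, the point used, −log10 q, fold enrichment and overlap. Python 3.11.15, pandas 2.3.3, NumPy 2.4.6, SciPy 1.17.1 and Matplotlib 3.10.9 were used.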

Additional observations from a re-analysis of the deposited data

How the results depend on the processing

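Of 67 alternative values over 13 settings, 64 stayed within these limits of the main value: counts within 1.5 times, shares within their 95% Wilson interval, and medians within a binomial interval of the median over peaks. Interior peaks numbered 316 with hosts of at least 10 kb, 439 with the longest gene as host and 486 with hosts of at least 2 kb. The share met by a 3A peak moved by more than 1.5 times, though within its interval, to 1.58% with hosts of at least 10 kb and to 4.0% with a fold enrichment at or above the list's median. Under the latter setting, 200 peaks were left by construction, with a median of 11.8, and 61.5% of them shared their host with another wild-type peak. A distance of at least 1 kb from both ends removes nothing by construction. Leaving out hosts on the other strand (392 peaks) and summits within 500 bp of an own start (363 peaks) were settings chosen after seeing the data. No paired analysis was possible because a single list covers each allele, so leaving out a replicate could not be tried either. Exons and peak sequence were not run. The 103 3A and 88 7A peaks limit every comparison with the mutants.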
